A study of Mus musculus with 6 samples.

Results

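The Ms4a genes encode proteins that cross the cell membrane several times, and 10 of them were followed through the bulk RNA-seq data of MHCIIhi cells from the muscularis externa (ME), the muscle layer of the small bowel wall. The members were chosen by name, as the rows of the deposited table whose gene symbol was Ms4a1, Ms4a4a, Ms4a4b, Ms4a4c, Ms4a6b, Ms4a6c, Ms4a6d, Ms4a7, Ms4a8a or Ms4a14. Each of these 10 symbols was found once among the 26110 genes listed.

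The 6 libraries came from untreated mice of the genotype CX3CR1+/GFP, in which one allele of the fractalkine receptor gene Cx3cr1 carries green fluorescent protein. Cells were sorted by this reporter into 3 CX3CR1- and 3 CX3CR1+ libraries, so that cells of both groups have a single intact copy of Cx3cr1. All mice were on the C57BL/6 background. The study's methods describe female mice and state no age. The ME of several mice was pooled for sorting. Whether each library had a pool of its own is not stated, and the p-values therefore measure the spread between libraries, which may be technical. The labels call the cells dendritic cells whereas the study calls them macrophages, so that the groups are named here by CX3CR1 alone. The transcript of Cx3cr1 lay between 18.9 and 28.5 in the CX3CR1- libraries and between 347 and 380 in the CX3CR1+ libraries, which matches the labels. All values are normalized values as deposited, which were scaled between libraries and not by transcript length.

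Several Ms4a proteins sit beside other receptors in the membrane and adjust their signals. The best known is Ms4a1, the B cell protein CD20, which therapeutic antibodies target. Others are typical of myeloid cells, such as Ms4a7 and Ms4a4a in macrophages, or belong to an immunoglobulin receptor, such as Ms4a2, the beta chain of the high-affinity IgE receptor of mast cells. Human genes of the family lie in a locus linked to Alzheimer's disease and to the soluble form of the microglial receptor TREM2.

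All members lie on mouse chromosome 19. Together with the other Ms4a genes listed, they span 661.4 kb at chr19:10962293-11623719 (GRCm38). Several arose by duplication and are alike in sequence, which matters for reads that could belong to more than one of them. The Ms4a6 genes Ms4a6b (chr19:11516512-11531256, plus strand), Ms4a6c (chr19:11469366-11482192, plus strand) and Ms4a6d (chr19:11586604-11604849, minus strand) are shown by the first 60 coding bases of their transcripts in GENCODE release M21, with capitals at the 12 positions where the 3 genes do not all have the same base:
Ms4a6b: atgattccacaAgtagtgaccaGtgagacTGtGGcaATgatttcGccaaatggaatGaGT
Ms4a6c: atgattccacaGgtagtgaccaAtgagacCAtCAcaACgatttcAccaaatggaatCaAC
Ms4a6d: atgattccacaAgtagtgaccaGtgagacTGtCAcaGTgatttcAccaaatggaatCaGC
Over these bases, Ms4a6b differed from Ms4a6c at 11 positions and from Ms4a6d at 6.

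Ms4a4b (chr19:11443553-11467055, plus strand) and Ms4a4c (chr19:11404770-11427246, plus strand) are shown in the same way beside Ms4a4d (chr19:11536801-11558467, plus strand), a close relative outside the 10 members. Here the capitals mark the 7 positions at which the 3 genes differ:
Ms4a4b: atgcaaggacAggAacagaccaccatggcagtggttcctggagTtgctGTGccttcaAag
Ms4a4c: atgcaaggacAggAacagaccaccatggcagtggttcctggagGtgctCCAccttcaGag
Ms4a4d: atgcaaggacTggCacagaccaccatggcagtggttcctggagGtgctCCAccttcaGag
Along the whole coding sequence, Ms4a4b and Ms4a4c were identical at 91.7% of aligned positions with gaps counted as differences, the highest identity among all pairs of Ms4a genes compared. Ms4a4c and Ms4a4d were identical at 85.4%, Ms4a6b and Ms4a6d at 80.2%, and Ms4a6b and Ms4a6c at 75.6%.

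Of the 10 members, 7 were lower and 2 were higher in CX3CR1- than in CX3CR1+ cells. The test was limma on log2(value + 1) over 17812 genes, and a gene was called at a log2 fold change of at least 1 in size with an adjusted p of at most 0.05 after Benjamini-Hochberg adjustment. Log2 fold changes are CX3CR1- minus CX3CR1+ and are smaller for low genes than the ratio of their values. Among all tested genes, 8.15% were called lower and 12.2% higher in CX3CR1- cells. The call of Ms4a4c was the one lost when a library was left out. The lower members were Ms4a7, Ms4a14, Ms4a6b, Ms4a6c, Ms4a6d, Ms4a4a and Ms4a4c, the higher ones were Ms4a1 and Ms4a8a, and Ms4a4b was not called. In 7 members every CX3CR1- library lay below every CX3CR1+ library, which held for 19.8% of all tested genes, and in 2 members every one lay above, which held for 20.3%. The median log2 fold change of the 10 members was -2.13, against -0.00349 for all tested genes. The exact two-sided permutation test of 3 libraries against 3 cannot give a p under 0.1, and it gave that value for all members other than Ms4a4b. Fewer cells that express a gene and less of its RNA per cell cannot be told apart in bulk samples.

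**Figure D1:**
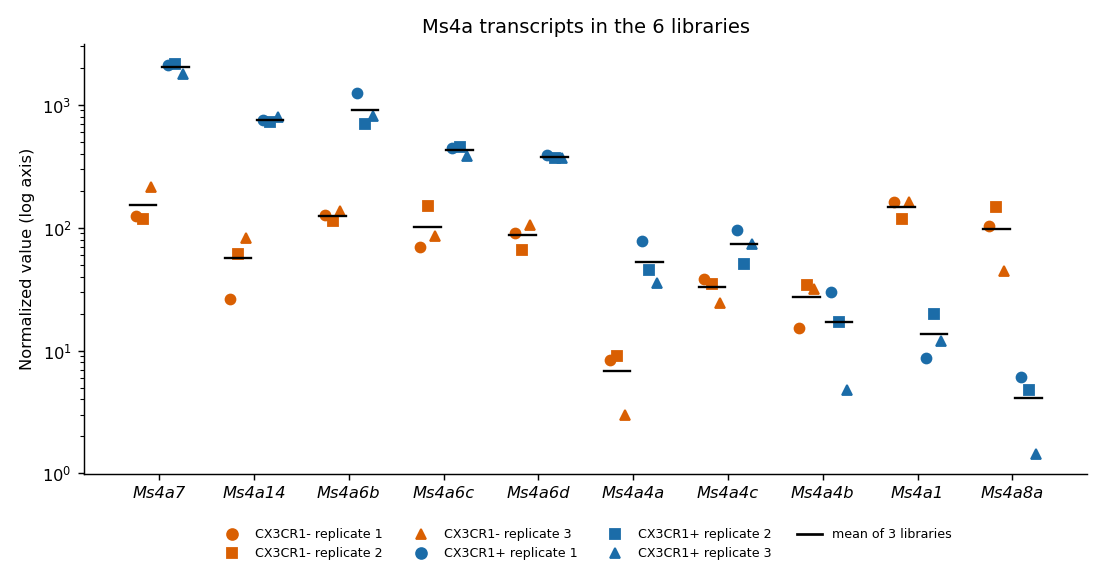
Normalized value (log axis) of the 10 Ms4a genes in the 3 CX3CR1- libraries (orange) and the 3 CX3CR1+ libraries (blue), with a symbol for each replicate and a black line at the mean. The orange and blue points overlap only for Ms4a4b, and the widest gaps among the lower genes are those of Ms4a7 and Ms4a14.

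Ms4a7 (chr19:11321039-11336146, minus strand), a gene typical of mature macrophages, had the highest level of the family per kilobase of transcript in CX3CR1+ cells. It was at 123, 117 and 214 in CX3CR1- replicates 1, 2 and 3 and at 2116, 2163 and 1785 in CX3CR1+ replicates 1, 2 and 3. All CX3CR1+ libraries were far above all CX3CR1- libraries, among which replicate 3 was the highest. The mean of the 3 libraries fell from 2022 ± 206 to 151 ± 54.2 (SD) in CX3CR1- cells, a 13.4-fold difference with a log2 fold change of -3.78 (standard error, SE, 0.246, limma adjusted p = 6.43e-06).

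Ms4a14 (chr19:11301249-11314454, minus strand) is the direct neighbour of Ms4a7 and has by far the longest coding sequence of the family. It was at 26.1, 60.8 and 81.8 in CX3CR1- replicates 1 to 3 and at 755, 723 and 789 in the CX3CR1+ replicates. The CX3CR1+ libraries were close to each other, with a coefficient of variation of 4.39%, whereas CX3CR1- replicate 1 lay well under the other CX3CR1- libraries. The groups did not overlap. Its log2 fold change of -3.87 (SE 0.367, limma adjusted p = 4.89e-05) was the most negative in the family. The 95% intervals of Ms4a14, from -4.69 to -3.05, and of Ms4a7, from -4.33 to -3.23, overlapped.

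The 3 Ms4a6 genes were all lower in CX3CR1- cells. Ms4a6b was at 126, 113 and 136 in CX3CR1- replicates 1 to 3 and at 1234, 696 and 807 in the CX3CR1+ replicates. The CX3CR1- values were tightly grouped, and CX3CR1+ replicate 1 stood above the other two. Its log2 fold change was -2.82 (SE 0.244, limma adjusted p = 2.90e-05).

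Ms4a6c was at 69.9, 151 and 84.9 in the CX3CR1- replicates and at 448, 456 and 384 in the CX3CR1+ replicates, with CX3CR1- replicate 2 above the other two. The log2 fold change was -2.14 (SE 0.294, limma adjusted p = 5.11e-04). Ms4a6d was at 90.5, 65.7 and 104 in CX3CR1- and at 389, 370 and 369 in CX3CR1+ libraries, with its lowest value in CX3CR1- replicate 2. Its log2 fold change was -2.13 (SE 0.241, limma adjusted p = 1.53e-04). In both genes the groups were separate and the CX3CR1+ libraries varied little, with coefficients of variation of 9.19% for Ms4a6c and 2.99% for Ms4a6d.

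Ms4a6c and Ms4a6b share a piece of sequence just upstream of their RefSeq transcription starts (GRCm38.p6), and both genes were lower in CX3CR1- cells, which is why the piece is shown. In Ms4a6c the 48 shared bases, in capitals, end next to the start site, within the plus-strand region chr19:11469289-11469367:
Ms4a6c: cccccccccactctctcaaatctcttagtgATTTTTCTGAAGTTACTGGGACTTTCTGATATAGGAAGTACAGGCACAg
In Ms4a6b the same 48 bases lie at chr19:11518441-11518488 on the plus strand, from 118 to 71 bases before the start used by RefSeq, and partly within an exon that GENCODE gives to another transcript of the gene. Of 32851 promoter windows of mouse genes, reaching from 250 bases before to 50 after a start site, the part before the start held this piece in 2, those of Ms4a6b and Ms4a6c. A window was given for 8 of the 10 members and not for Ms4a1 and Ms4a6d.

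Ms4a4a (chr19:11375523-11392790, plus strand) encodes a macrophage surface protein that has been linked to the beta-glucan receptor Dectin-1, the product of Clec7a. It was at 8.35, 8.94 and 2.99 in CX3CR1- replicates 1 to 3 and at 77.2, 45.1 and 35.4 in the CX3CR1+ replicates. The CX3CR1- values rested on about 8, 5 and 3 reads. A value of 3 reads or fewer was treated as not measurable, which held for CX3CR1- replicate 3. The groups were nevertheless separate, with a 7.78-fold difference of the means. The log2 fold change was -2.82 (SE 0.545, limma adjusted p = 0.00390), and it was -1.87 with a pseudocount of 10 in place of 1.

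Ms4a4c was at 38.5, 35.1 and 24.2 in the CX3CR1- and at 96.2, 50.5 and 73.8 in the CX3CR1+ replicates, so that the groups were separate by a narrow margin. The log2 fold change of -1.13 (SE 0.365, limma adjusted p = 0.0475) was the smallest among the members called. This call was lost when any one library was left out, with adjusted p-values from 0.0524 without CX3CR1+ replicate 2 to 0.199 without CX3CR1+ replicate 1, and with a block for adjacent library numbers (adjusted p = 0.0570). When Ms4a4b, Ms4a4c and Ms4a4d were summed because they share sequence, the log2 fold change of the sum was 0.97 (limma adjusted p = 0.0438), below the fold threshold. In CX3CR1- cells Ms4a4d was the largest part of this sum, with a mean of 137 against 32.6 for Ms4a4c and 27.1 for Ms4a4b. In CX3CR1+ cells the means were 9.27, 73.5 and 17.2 in the same order. The sum thus follows Ms4a4d and cannot decide the direction of Ms4a4c alone.

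Ms4a4b, which is known from T cells as a partner of the receptor GITR, was not called. It was at 15.3, 34.4 and 31.5 in the CX3CR1- and at 29.8, 16.9 and 4.76 in the CX3CR1+ replicates. The ranges overlapped, and the lowest value rested on about 3.36 reads. The log2 fold change was 0.85 (95% interval from -0.61 to 2.31, limma adjusted p = 0.396), an interval that runs past the fold threshold on the higher side. It was 0.18 without CX3CR1+ replicate 3 and 1.39 without CX3CR1+ replicate 1, and not called in either case. Of 12 T and NK cell markers, 6 were tested, of which 4 were higher in CX3CR1- cells and none was lower. The list summed to between 440 and 506 in CX3CR1- and between 115 and 184 in CX3CR1+ libraries, and its part in the level of Ms4a4b was not tested. Of its genes with the highest values, not scaled to length, Cd3d was at 83.5 ± 25.3 in CX3CR1- and 82.3 ± 36.6 in CX3CR1+ cells (SD, n = 3 each), and Cd2 was at 164 ± 38.8 and 1.39 ± 0.637 (SD, n = 3 each).

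Ms4a4d, close in sequence to Ms4a4c, was higher in CX3CR1- cells. It was at 137, 73.3 and 202 in the CX3CR1- and at 8.79, 14.8 and 4.25 in the CX3CR1+ replicates, of which the last rested on 3 reads. Its log2 fold change was 3.78 (SE 0.518, limma adjusted p = 5.06e-04), and its 95% interval from 2.62 to 4.93 lay on the other side of 0 from that of Ms4a4c, which ran from -1.94 to -0.32. The bases upstream of the starts of Ms4a4b and Ms4a4c are shown because these genes hold there the letters GAGGAA, the core that the myeloid factor PU.1 binds. The regions are chr19:11443464-11443529 and chr19:11407570-11407635, both on the plus strand, with the motif in capitals:
Ms4a4b: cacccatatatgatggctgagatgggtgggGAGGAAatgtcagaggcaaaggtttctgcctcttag
Ms4a4c: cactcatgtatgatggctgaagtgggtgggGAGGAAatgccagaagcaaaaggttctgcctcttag
These stretches were the same at 58 of 66 positions. GAGGAA or its reverse complement TTCCTC was found in the windows of 4 of the 8 members that have one, the other genes being Ms4a14 and Ms4a7. Over all genes with a window, 31.25% held it, and the 2 motif spellings are 1 site read on both strands. A match of these letters is a description and not evidence of binding.

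Ms4a1 (chr19:11249675-11266241, minus strand) was higher in CX3CR1- cells. It was at 163, 117 and 163 in the CX3CR1- and at 8.666, 19.999 and 11.954 in the CX3CR1+ replicates. All CX3CR1+ values were above the level of 3 reads, and the groups were far apart. The mean of the 3 libraries was 13.5 ± 5.83 in CX3CR1+ and rose to 148 ± 26.4 in CX3CR1- cells (SD), a 10.9-fold difference with a log2 fold change of 3.41 (SE 0.382, limma adjusted p = 1.41e-04).

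Other B cell genes moved with Ms4a1. Of 12 B cell markers, 11 were tested, of which 9 were higher in CX3CR1- cells, none was lower and 2 were not called, with a median log2 fold change of 2.99. The summed value of the list was between 1692 and 2232 in CX3CR1- and between 1033 and 1083 in CX3CR1+ libraries. Bank1, an adaptor of B cell receptor signalling, was at 411 ± 8.89 in CX3CR1- and 792 ± 35.3 in CX3CR1+ cells (SD, n = 3 each). Its log2 fold change of -0.94 (limma adjusted p = 0.00223) did not reach the fold threshold. Ebf1, a transcription factor of early B cells, rose from 77.7 ± 8.29 in CX3CR1+ to 290 ± 90.9 in CX3CR1- cells (SD, n = 3 each). Blk and Vpreb3 were at 0 in all CX3CR1+ libraries, and Blk was at 8.80, 73.1 and 10.7 in CX3CR1- replicates 1 to 3, highest in replicate 2. The part of these genes' cells in the result for Ms4a1 was not tested. Plasma cell genes, which mature B cells acquire as they lose Ms4a1, were higher for 3 of 5 tested genes. The genes with the highest values, not scaled to length, were Igha, at 7653, 22680 and 1604 in the CX3CR1- replicates, and Jchain, at 946, 2900 and 1115. Both were highest in CX3CR1- replicate 2, in which Ms4a1 was lowest.

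Ms4a8a (chr19:11067471-11081102, minus strand), described in alternatively activated macrophages and in epithelia, had the largest rise among the members. It was at 102, 148 and 44.0 in the CX3CR1- and at 6.09, 4.80 and 1.44 in the CX3CR1+ replicates. The last value stood for about 1.01 reads, so that the level of Ms4a8a in CX3CR1+ cells was at the limit of these libraries, and no library of one group reached the other. The means were 98.0 ± 52.0 and 4.11 ± 2.40 (SD, n = 3 each), a 23.9-fold difference. The log2 fold change was 4.25 (SE 0.605, limma adjusted p = 6.34e-04), and it was 2.82 with a pseudocount of 10.

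Enterocyte genes moved in the same direction as Ms4a8a. All 8 enterocyte markers were higher in CX3CR1- cells, and their summed value was 27904, 26230 and 16262 in the CX3CR1- replicates against 44.2, 25.1 and 21.8 in the CX3CR1+ replicates. Fabp2, the intestinal fatty acid binding protein, was at 18240 ± 4921 in CX3CR1- and 4.30 ± 4.40 in CX3CR1+ cells (SD, n = 3 each), and the keratin Krt20 was at 1805 ± 825 and 0.582 ± 0.507 (SD, n = 3 each). Alpi, intestinal alkaline phosphatase, was at 0 in all CX3CR1+ libraries. Ms4a8a and the enterocyte sum were both lowest in CX3CR1- replicate 3, but Ms4a8a was highest in replicate 2 and the sum in replicate 1. The part of enterocyte RNA in the value of Ms4a8a was not tested.

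The other Ms4a genes listed were few or low. Ms4a10 was at 59.8, 29.1 and 25.6 in the CX3CR1- replicates and at 0 in all CX3CR1+ replicates, at least 14.1-fold higher when 3 reads per library are taken as the level of the CX3CR1+ libraries. It was called higher in CX3CR1- cells (limma adjusted p = 9.14e-04). Ms4a18, Ms4a12, Ms4a5 and Ms4a2 had means under 10 and were not tested. Ms4a2 was at 4.82, 5.34 and 2.76 in the CX3CR1- and at 2.13, 6.81 and 2.61 in the CX3CR1+ replicates, which overlapped. Of the 5 mast cell markers only the receptor gene Kit was listed, which was at 349 ± 201 in CX3CR1- and 31.4 ± 11.7 in CX3CR1+ cells (SD, n = 3 each), with a log2 fold change of 3.30 and a limma adjusted p = 9.27e-04.

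Along the chromosome, genes with the same direction lay side by side at one end. Counted from the first Ms4a gene, Ms4a10, both members that were higher in CX3CR1- cells came first, Ms4a8a at 105 kb and Ms4a1 at 287 kb. Ms4a14 at 339 kb and Ms4a7 at 359 kb followed on the same strand and were lower, so that the direction changed between Ms4a1 and Ms4a14, between which the untested Ms4a5 is the one Ms4a gene. The members lower in CX3CR1- cells then ran to Ms4a6d at 624 kb, broken by Ms4a4b at 481 kb and by Ms4a4d at 575 kb. Of the protein-coding genes within 200 kb of the cluster or inside it, 8 were tested, and 3 of them were lower and none was higher in CX3CR1- cells. Among all tested genes, 8.15% were lower and 12.2% higher. The 3 lower genes were Slc15a3, Tmem132a and Tmem109, all on the side of Ms4a10, with log2 fold changes of -2.57, -2.47 and -1.56.

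**Figure D2:**
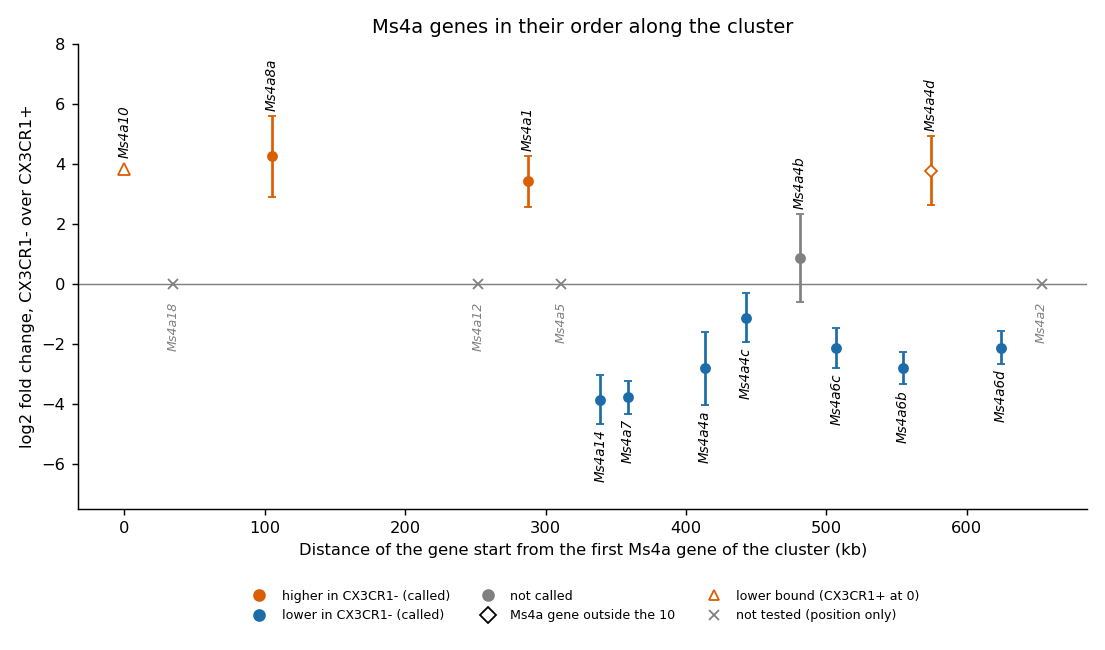
Log2 fold change (CX3CR1- over CX3CR1+, bars are 95% intervals from limma) against the distance in kb of each gene from the first Ms4a gene of the cluster on chromosome 19. Genes higher in CX3CR1- cells (orange) are the ones tested in the first 287 kb, and from 339 kb on the members called are lower (blue), whereas Ms4a4d (open diamond) is higher; Ms4a10 is drawn as a lower bound, and crosses mark untested genes by position only.

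Levels of the members were compared with one another per kilobase of transcript. With the length of the longest transcript, the mean levels in CX3CR1+ cells ran in the order Ms4a7 (560), Ms4a6d (265), Ms4a6c (233), Ms4a6b (213), Ms4a14 (186), Ms4a4a (62.9), Ms4a4c (42.7), Ms4a1 (4.40), Ms4a4b (3.61) and Ms4a8a (3.49). Ms4a7 was above Ms4a6d, and Ms4a6d above Ms4a6c, in all 3 libraries with no overlap of values. The values of Ms4a6c, Ms4a6b and Ms4a14 overlapped from one to the next, as did those of Ms4a4a and Ms4a4c and those of the last 3 genes. The other steps of the order were clear of overlap. Ms4a7 came first with each length used, but the order after it turned with the length. Per kilobase of the median transcript length, Ms4a6b (541) lay above Ms4a6c (346) with no overlap, and Ms4a6c was clear of Ms4a14. Per kilobase of the longest protein-coding transcript, Ms4a6b (340) came before Ms4a6d (265), with overlap.

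In CX3CR1- cells the levels lay closer together. Ms4a8a came first with 83.3 ± 44.2 (SD, n = 3) per kilobase, followed by Ms4a6d (61.2), Ms4a6c (55.4), Ms4a1 (48.0) and Ms4a7 (42.0), and these neighbours all overlapped. Ms4a6b (29.2) and Ms4a4c (18.9) were separate from those before them, and Ms4a14 (13.8), Ms4a4a (8.09) and Ms4a4b (5.70) closed the order. From Ms4a4c on, each gene overlapped with the next. The first place turned with the length used. Per kilobase of the median transcript length, Ms4a6d (135.8) and Ms4a7 (113.5) came before Ms4a8a (86.8), and per kilobase of the longest protein-coding transcript Ms4a7 (96.1) came first.

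The composition of the family also differed. Ms4a7 held 33.7, 38.8 and 34.4% of the summed level per kilobase in CX3CR1+ replicates 1 to 3 and 9.84, 8.03 and 17.2% in the CX3CR1- replicates. Ms4a8a held 25.0, 31.1 and 10.8% in CX3CR1- but at most 0.298% in CX3CR1+ libraries, and Ms4a1 held between 9.44 and 15.3% against at most 0.421%. For each of these 3 genes the groups were separate (exact permutation p = 0.1, the smallest possible). Ms4a6c held a share of 14.9 ± 4.86% in CX3CR1- and 14.8 ± 1.06% in CX3CR1+ cells (SD, n = 3 each), and Ms4a6d one of 17.03 ± 5.03% and 16.9 ± 1.18% (SD, n = 3 each). Their shares overlapped, although both genes were lower in CX3CR1- cells. The shares rest on the length chosen. Per kilobase of the longest protein-coding transcript, Ms4a7 held 52.9 ± 3.41% in CX3CR1+ and 21.7 ± 7.84% in CX3CR1- cells (SD, n = 3 each). With the median transcript length, the difference in share, CX3CR1- minus CX3CR1+, was 13.4 percentage points for Ms4a8a in place of 22.1, 7.51 for Ms4a1 in place of 13.1 and -3.44 for Ms4a14 in place of -8.10.

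**Figure D3:**
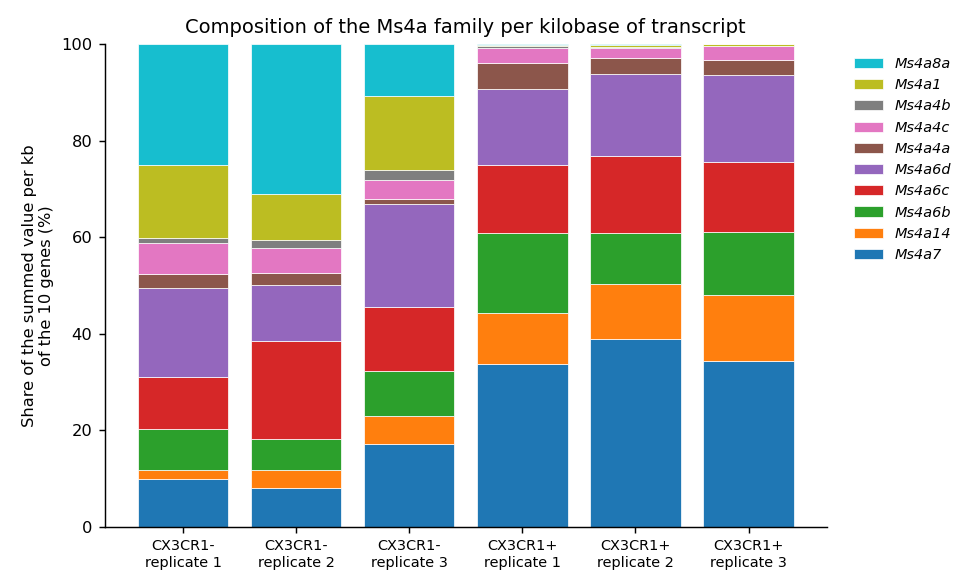
Share (%) of each of the 10 genes in the summed normalized value per kilobase of the longest transcript, for the 6 libraries. Ms4a7 takes 33.7 to 38.8% of the bars of CX3CR1+ libraries, whereas Ms4a8a and Ms4a1 take visible parts of the CX3CR1- bars only.

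How well reads can be assigned within the family was read from the transcripts themselves, as the share of a gene's 31-base words (31-mers) that also occur in another gene. Ms4a14 and Ms4a4a had none, and for these genes each value was a whole number of reads. Ms4a7, Ms4a1 and Ms4a8a shared at most 2.34%. Ms4a6b shared 7.90% and Ms4a6d 8.11%, mostly with the other Ms4a6 genes, and Ms4a4b shared 5.46%.

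Ms4a4c shared 17.1% of its 31-mers, of which most were those found in Ms4a4b, the highest share among the Ms4a4 genes. Ms4a6c shared 58.1%, with 51.0% found in BE692007, a processed transcript on the opposite strand at chr19:11470166-11484578, and 13.9% in Ms4a6b. The library kit does not keep strand, so that reads of Ms4a6c and BE692007 cannot be told apart in the overlap. BE692007 was at 48.9, 79.6 and 78.5 in the CX3CR1- and at 173, 132 and 113 in the CX3CR1+ replicates, separate groups with the same direction as Ms4a6c. With the 3 Ms4a6 genes summed, the log2 fold change was -2.44 (limma adjusted p = 1.32e-05).

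**Figure D4:**
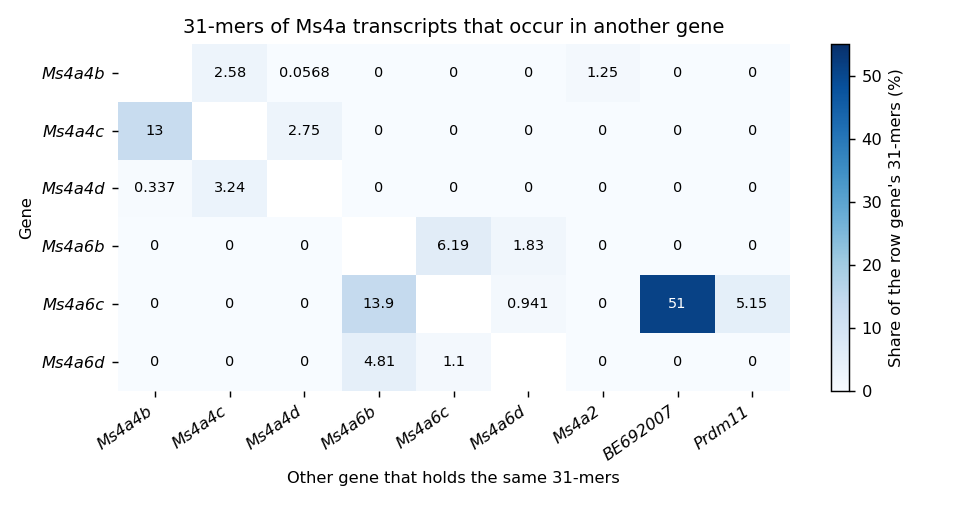
Share (%) of the 31-mers of each gene in a row that also occur in the gene of the column, for the Ms4a4 and Ms4a6 genes with close relatives. The darkest field is the 51.0% that Ms4a6c shares with the opposite-strand BE692007, followed by 13.9% with Ms4a6b and the 12.99% that Ms4a4c shares with Ms4a4b.

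A further list held 6 genes of partners of Ms4a proteins and of receptors linked to the family. Of the 6, 5 were listed and tested, Fcer1a being the gene not listed. Of these, 3 were lower and 1 was higher in CX3CR1- cells, with a median log2 fold change of -1.11. Trem2, a lipid receptor of macrophages, was at 11.8, 28.4 and 33.7 in the CX3CR1- and at 228, 358 and 285 in the CX3CR1+ replicates, a log2 fold change of -3.60 (limma adjusted p = 1.30e-04). Its adaptor Tyrobp fell from 4659 ± 759 in CX3CR1+ to 2159 ± 391 in CX3CR1- cells (SD, n = 3 each), and the Fc receptor gamma chain gene Fcer1g fell from 3685 ± 178 to 1239 ± 232 (SD, n = 3 each). Clec7a was at 319 ± 108 in CX3CR1- and 530 ± 8.54 in CX3CR1+ cells (SD, n = 3 each), with a log2 fold change of -0.78 that stayed under the fold threshold (limma adjusted p = 0.0388). Tnfrsf18, the gene of GITR, was higher in CX3CR1- cells, at 23.8, 53.3 and 27.1 against 0.748, 2.91 and 2.36. The level of 3 reads was 1.39, 2.46 and 4.25 in CX3CR1+ replicates 1 to 3. Tnfrsf18 was thus not measurable in CX3CR1+ replicates 1 and 3 and just above that level in replicate 2.

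Tmem176a and Tmem176b, related membrane proteins of dendritic cells and macrophages whose genes lie on chromosome 6, were both lower in CX3CR1- cells. Tmem176a was at 599, 869 and 530 in the CX3CR1- and at 1445, 1601 and 1348 in the CX3CR1+ replicates (log2 fold change -1.16, limma adjusted p = 0.00238). Tmem176b was at 659, 650 and 545 against 1694, 1682 and 1396 (log2 fold change -1.36, limma adjusted p = 2.71e-04). Both differences were smaller than those of Ms4a7 and Ms4a14, whose 95% intervals lay wholly below theirs.

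The 7 lower members moved with macrophage genes. Of 15 markers of resident macrophages, 12 were lower in CX3CR1- cells, 2 were higher and 1 was not called, with a median log2 fold change of -2.32. The list summed to between 11670 and 13640 in CX3CR1- and between 53497 and 59485 in CX3CR1+ libraries, and no marker was at 0. Its genes with the highest values, not scaled to length, were the mannose receptor Mrc1, with a log2 fold change of -2.18 (limma adjusted p = 5.62e-06), and the growth factor receptor Csf1r, with one of -2.42 (adjusted p = 4.38e-06). The 2 markers that were higher in CX3CR1- cells were Lyve1 and Timd4. Ms4a7 had a 95% interval of the log2 fold change that lay wholly below the value of either Mrc1 or Csf1r. It did not lie below that of Cx3cr1, the marker in this list on which the sort rests, at -3.92.

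Markers of other myeloid cells went the opposite way to these 7 members. Of 9 markers of conventional dendritic cells, 8 were higher in CX3CR1- cells and 1 was not called, with sums between 3662 and 4229 in CX3CR1- and between 282 and 330 in CX3CR1+ libraries. Clec9a, a receptor for dead cells, had a log2 fold change of 4.24 (limma adjusted p = 6.59e-06) and the lectin Cd209a one of 4.99 (adjusted p = 3.75e-06). Of 7 monocyte markers, 5 were tested and 4 were higher, among them the chemokine receptor Ccr2 with a log2 fold change of 1.23 (limma adjusted p = 0.010004) and Plac8 with one of 6.45 (adjusted p = 3.45e-05). Mitochondrially encoded genes also differed, with 47.5 to 54.9% of the summed values in CX3CR1- and 18.1 to 21.2% in CX3CR1+ libraries. The part of cell composition, and of the mitochondrial share, in the Ms4a results was not tested beyond the rescaling given under the alternatives. Depth did not separate the groups, with about 6517535 to 11927365 reads per CX3CR1- and 5346379 to 17616748 per CX3CR1+ library.

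**Figure D5:**
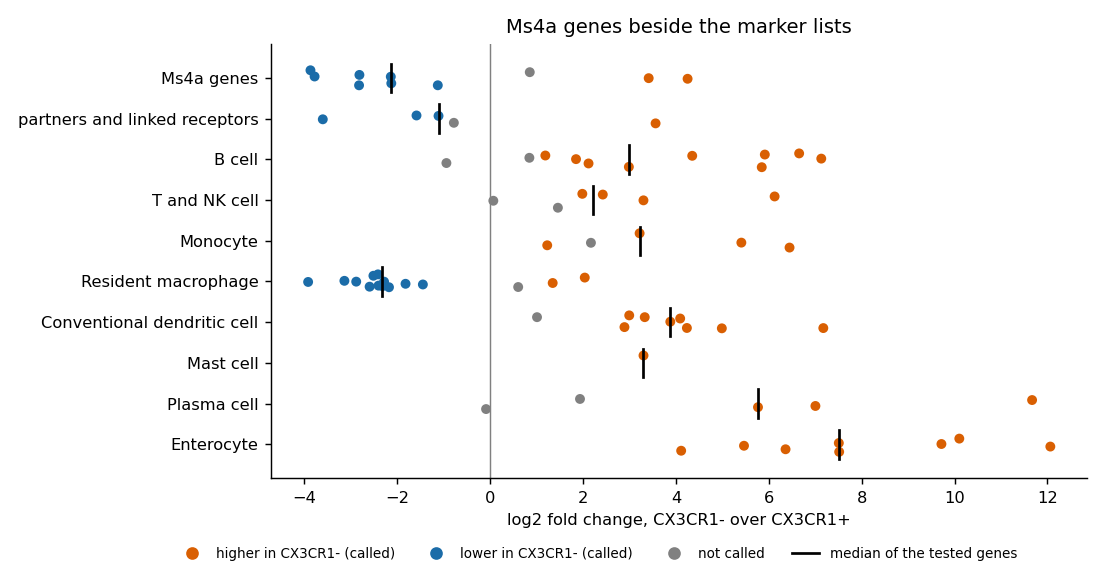
Log2 fold change (CX3CR1- over CX3CR1+) of the 10 Ms4a members and of each tested gene of the marker lists. A black line marks the median. Ms4a4d and Ms4a10, both higher in CX3CR1- cells, are not drawn. The members lie on both sides of 0, with a median of -2.13 near that of the resident macrophage list at -2.32. All other marker lists have medians above 0 apart from the partners at -1.11. Fitted values of genes at 0 in a group depend on the pseudocount.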

How the data were processed

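Bulk RNA-seq covered 3 CX3CR1- and 3 CX3CR1+ libraries. The authors pseudoaligned the reads with Kallisto to the mouse transcriptome (mm10 per the labels, GENCODE release M16), summed estimated counts per gene and normalized them between libraries with DESeq2. The deposited values are this normalized signal, not counts. Of the values above 0 in a library, 42.5 to 44.6% were whole multiples (within 0.01) of its smallest step, so no count test was run. That step gave approximate reads per library and the normalized value of 3 reads, 1.39 to 5.36, which covers counting error only. All measurement columns could be mapped to a sample by library number. Genes with a mean of at least 10 were fitted with limma 3.58.1 in R 4.3.3 (lmFit, eBayes with trend) on log2(value + 1), two-sided, after a check on simulated data. The 95% intervals are those of limma.

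Transcript lengths, 31-mers and coding sequences came from GENCODE M21 and promoters from RefSeq (both GRCm38). Protein sequences were not used here. Members and lists were chosen with earlier results of these data known. Named were all members, the other Ms4a and Tmem176 genes, the partner genes and the 2 most abundant genes of each marker list. Genes named in addition, after their values were seen, were Cx3cr1, Blk, Vpreb3, Alpi, Lyve1, Timd4, BE692007, Slc15a3, Tmem132a and Tmem109. Alternatives were other pseudocounts, filters, scalings, variance priors, library weights, a block of adjacent library numbers and leaving out each library. Summed paralogs and the length of the longest protein-coding transcript were alternatives chosen after seeing the data. Plots were drawn with matplotlib 3.10.9.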

Additional observations from a re-analysis of the deposited data

How the results depend on the processing

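The counts of 2 higher and 7 lower members became 2 and 6 with a pseudocount of 10, without the filter on low values, after scaling without mitochondrial genes, without the variance trend, with library weights, with the block of adjacent library numbers, with paralogs summed and without any single library (2 and 6 in each of these 6 fits). A mean of at least 50 left 8 members tested, of which 2 were higher and 5 lower, since Ms4a4a and Ms4a4b fell below that mean. The call lost was that of Ms4a4c in each case. Its call was also lost at a mean of at least 50 (adjusted p = 0.0565), and its log2 fold change ranged from -1.37 to -0.91 with a library left out. The sum of Ms4a4b, Ms4a4c and Ms4a4d had a log2 fold change of 0.97, which is not a value of Ms4a4c alone. In this sum Ms4a4d had the highest mean of the genes in CX3CR1- cells (137) and the lowest in CX3CR1+ cells (9.27). Ms4a4d shares only 3.24% of its 31-mers with Ms4a4c and 0.337% with Ms4a4b. The direction of the sum therefore cannot decide that of Ms4a4c. The part of shared reads in the value of Ms4a4c was not tested. The other 8 called members kept their calls in each alternative in which they were tested. With paralogs summed, Ms4a6b, Ms4a6c and Ms4a6d all carried the value of their common sum, so that fit did not test them singly. Ms4a4b was not called in any, although its log2 fold change passed 1 after scaling without mitochondrial genes (1.016), without CX3CR1- replicate 1 (1.21) and without CX3CR1+ replicate 1 (1.39), and the sum with its paralogs passed the adjusted p alone (0.0438). The block changed no other member's call. Over all genes, the number higher in CX3CR1- cells was 2177 and was 1232 at a mean of at least 50, where 10208 genes were tested in place of 17812. With a library left out, 1693 to 2292 genes were higher and 1005 to 1570 lower. Over all tested genes, the middle log2 fold change became -0.15 after quantile normalization and 0.16 after scaling without mitochondrial genes. Median-of-ratios rescaling used nearly the same factor in every library. Values of Ms4a4a and Ms4a8a in their lower group rest on 8 reads or fewer and 13.2 or fewer, which limits the size of their fold changes.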
